A study of Mus musculus with 16 samples.

Results

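The genes examined here are 7 markers of B cells and plasma cells, namely Ms4a1, Cd79a, Cd79b, Pou2af1, Prdm1, Jchain, and Mzb1, measured in mouse kidney. They were chosen by name, with earlier results of these data known, and each gene was matched through the RefSeq transcript that its probe targets. Every member had 1 probe, so 7 probes stood for these genes among 56605 on the array, and the 7 genes were among 22911 that could be named. Levels are log2 processed signal minus the 75th percentile of the same array, so a level of 0 is the signal at that percentile and each unit is a 2-fold difference in signal. Levels of different probes cannot be compared with each other, since probes differ in brightness.

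B cells sense antigen through a receptor made of a membrane antibody and the signaling pair CD79A and CD79B, and most carry CD20, the product of Ms4a1. After activation, some of them become plasma cells, which switch to a secretory program under BLIMP-1, the product of Prdm1, and release antibody. In lupus nephritis, antibody and immune complexes collect in the kidney, and B cells and plasma cells can be found within the tissue. Fcgr2b encodes the inhibitory IgG receptor of B cells and myeloid cells, and STING is an adaptor of the cytosolic DNA sensing pathway.

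Whole kidneys of 16 mice aged 6 months were measured, 1 mouse per array, with 4 mice in each of 4 genotypes. The wild-type (WT) and Sting-ko mice had the C57BL/6 background. The Fcgr2b-ko mice, labelled as lupus mice, and the Fcgr2b-ko, Sting-ko mice (double-deficient) had the 129/C57BL/6 background, so that Fcgr2b genotype and strain cannot be told apart. The Sting-deficient mice carried the Goldenticket allele (Sting gt), which acts as a functional knockout in the whole animal, and the columns of the Fcgr2b-ko group are headed as heterozygous for this allele in the study's heat maps although the labels name the Fcgr2b deletion alone. The WT mice were bought from an animal center, and no label gives the sex of a mouse. Probes were tested with limma over all 16 arrays, and a probe was called when its Benjamini-Hochberg adjusted p was under 0.05 and its change was at least 2-fold.

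Between 28441 and 35564 probes per array were well above background by the scanner software's own test, and 35628 probes that passed on at least 4 arrays were tested. All 8 kidney markers, Umod and Lrp2 among them, were well above background on every array. The brighter Fcgr2b probe lay between 0.60 and 1.63 in the WT mice, between -0.53 and 0.21 in the Fcgr2b-ko mice, between -0.93 and -0.00 in the double-deficient mice, and between -0.66 and 1.0 in the Sting-ko mice. Fcgr2b was thus lower in every Fcgr2b-deficient mouse than in every WT mouse, with a log2 change of -1.44 (SE 0.35) in the Fcgr2b-ko mice and an adjusted p of 0.416 that did not pass, whereas Sting-ko replicates 3 (0.17) and 4 (-0.66) lay within the range of the deficient mice. Sting-ko replicate 2 (0.51) also lay below every WT mouse, so that 1 of the 4 Sting-ko mice was within the WT range. Whether the probe lies in the deleted part of the gene is not given in the sources used here, and the level of Sting1 checks nothing because the Goldenticket allele is a missense change. The labels list 16 separate samples, and p-values measure the spread between them. WT replicates 3 and 4 share the first number of their animal labels, as do Fcgr2b-ko replicate 4 with double-deficient replicate 3 and Fcgr2b-ko replicate 3 with double-deficient replicate 4. What this number marks is not given in the sources used here, and with it as a random block the 16 probes called in Fcgr2b-ko against WT mice fell to 0.

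Of the 7 members, 6 could be measured. Cd79b, Jchain, and Mzb1 were well above background on all 16 arrays, Ms4a1 on 15, Prdm1 on 13, and Pou2af1 on 12. The Cd79a probe failed that test of the scanner software on each of the 16 arrays and was left out of the fit, so nothing can be said of CD79A, the partner of CD79B.

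The surface and receptor genes came first. Ms4a1 measured -1.27, -4.71, -4.74, and -3.35 in WT replicates 1 to 4, where the value of replicate 3 was not well above background. It measured -1.32, -3.72, -3.79, and -3.69 in the Fcgr2b-ko mice. In the double-deficient mice the levels were -3.45, -0.55, -3.80, and -2.64, and in the Sting-ko mice they were -1.98, -1.62, -3.24, and -3.69. One mouse stood high in each of the WT, Fcgr2b-ko, and double-deficient groups and both WT replicates 2 and 3 stood low, so all 4 groups overlapped. Overlap was usual over all probes tested. The groups were fully apart for 1.19% of probes in Fcgr2b-ko against WT and 1.02% in double-deficient against Fcgr2b-ko. These shares were 0.547% in double-deficient against WT and 1.99% in Sting-ko against WT. Group means were -3.52 ± 1.64 (SD, n = 4) in WT, -3.13 ± 1.20 in Fcgr2b-ko, -2.61 ± 1.45 in double-deficient, and -2.63 ± 0.99 in Sting-ko mice, and neighbors in this order differed by less than their spread.

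Cd79b, the signaling subunit of the B-cell receptor, measured 0.75, -2.74, -2.16, and -1.49 in WT replicates 1 to 4. Its levels were 1.61, -1.37, -1.41, and 0.51 in the Fcgr2b-ko mice. The double-deficient mice had -1.35, 0.80, -1.25, and -0.91, and the Sting-ko mice had -0.08, -0.30, -1.08, and -0.81. The same mice as for Ms4a1 led the first 3 groups, Fcgr2b-ko replicate 4 was also high, and the groups overlapped. From the lowest to the highest of the 16 mice, the signal of Cd79b spanned 20.4-fold and that of Ms4a1 18.2-fold.

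**Figure D1:**
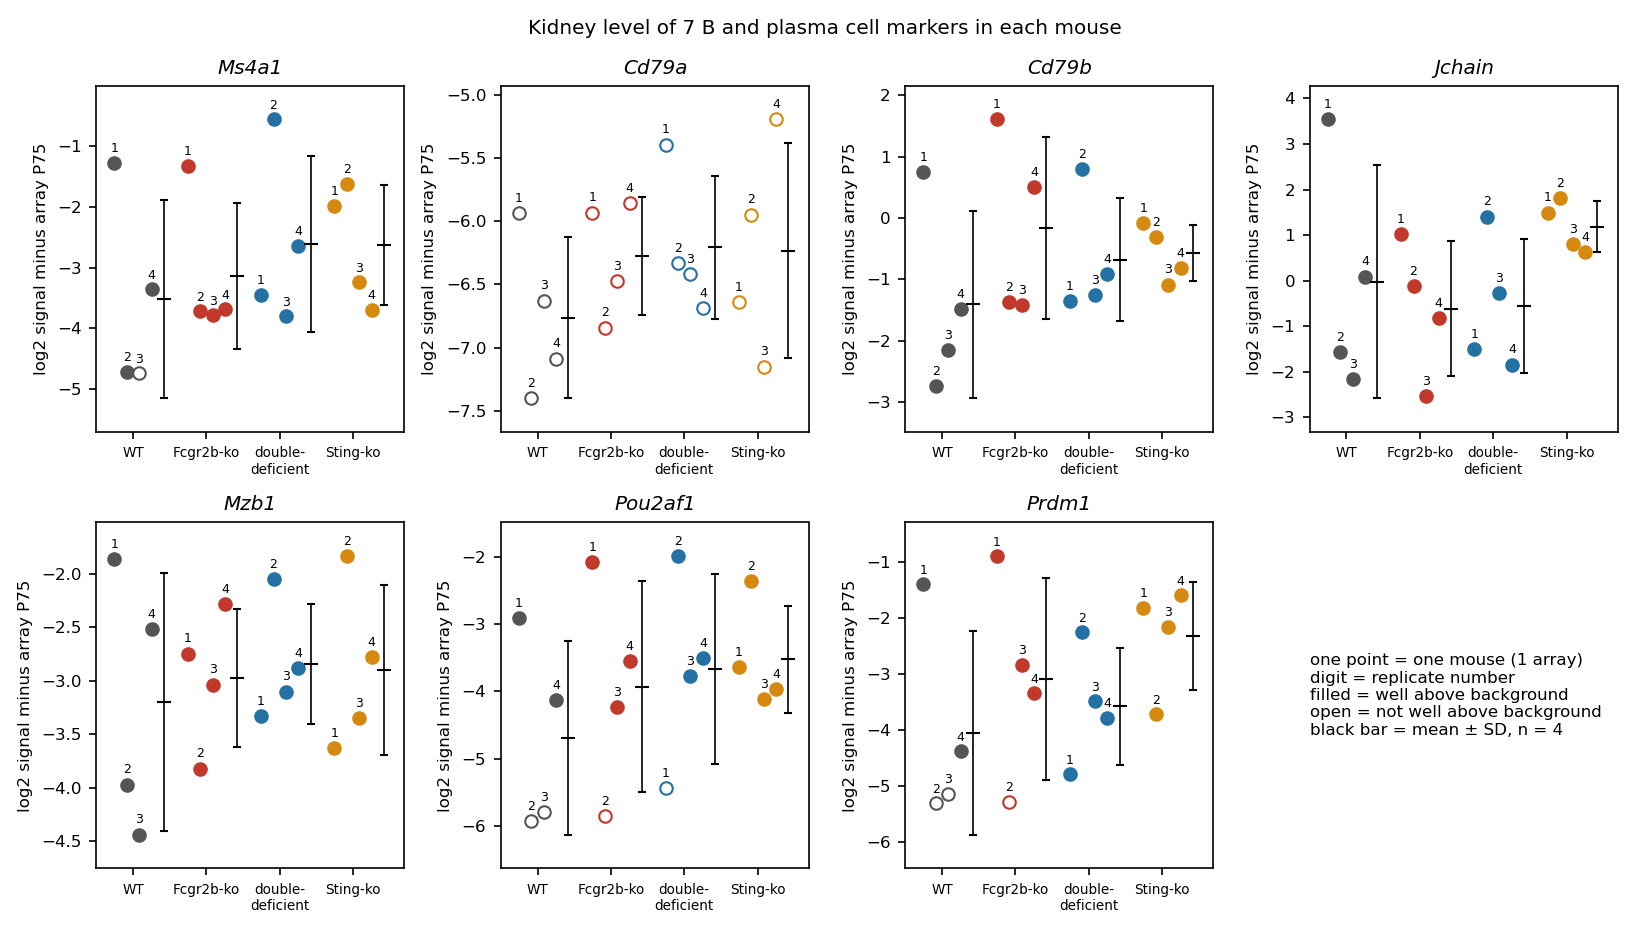
Log2 signal minus the array's 75th percentile (vertical axis) of each member in each mouse, grouped by genotype (horizontal axis), with replicate numbers beside the points; filled points were well above background, open points were not, and black bars give the mean ± SD of 4 mice. WT replicate 1 stood high in every panel of the 6 measured genes, and WT replicates 2 and 3 stood low.

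Of the regulators, Pou2af1 encodes OCA-B, a B-cell coactivator that is recruited by octamer-binding factors, and Prdm1 encodes the repressor that installs the plasma-cell program. The sequences before the start sites of 3 measured members are shown because the octamer is the DNA element through which OCA-B acts. Each is the 250 bases before the annotated start, from RefSeq on build GRCm38.p6, written 5′ to 3′ on the strand of the gene, with the octamer core ATTTGC or its reverse complement GCAAAT in capitals. The Pou2af1 window is chr9:51213440-51213689 on the plus strand, the Prdm1 window is chr10:44458749-44458998 on the minus strand, and the Jchain window is chr5:88527898-88528147 on the minus strand.
Pou2af1: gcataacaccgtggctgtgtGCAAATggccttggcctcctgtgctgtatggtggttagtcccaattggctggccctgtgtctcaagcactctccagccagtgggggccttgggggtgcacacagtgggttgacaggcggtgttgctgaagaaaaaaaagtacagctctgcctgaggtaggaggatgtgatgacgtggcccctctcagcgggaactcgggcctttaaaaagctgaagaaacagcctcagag
Prdm1: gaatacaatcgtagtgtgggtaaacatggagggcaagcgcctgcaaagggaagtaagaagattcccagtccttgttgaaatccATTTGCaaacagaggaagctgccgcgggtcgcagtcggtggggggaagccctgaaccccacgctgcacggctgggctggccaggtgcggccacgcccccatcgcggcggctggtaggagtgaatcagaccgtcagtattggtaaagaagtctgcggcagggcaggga
Jchain: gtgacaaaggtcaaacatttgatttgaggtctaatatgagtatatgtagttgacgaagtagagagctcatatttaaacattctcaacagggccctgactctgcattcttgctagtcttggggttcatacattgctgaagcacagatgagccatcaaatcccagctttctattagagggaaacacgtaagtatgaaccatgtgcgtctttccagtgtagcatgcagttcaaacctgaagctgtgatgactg
The core began 230 bases before the start of Pou2af1 and 167 bases before that of Prdm1, and the Jchain window held none. The core was present, on either strand, in 9.26% of 32851 windows of the same length, and the full octamer ATTTGCAT, which overlaps it, was in 1.6% of them and in none of the 3 shown. The E-box CAGGTG, present in 17.2% of all windows, was found in the Prdm1 window, 87 bases before the start, and TATAAA, present in 12.4% of windows, was in none of the 3. These matches describe the letters of the windows alone.

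Pou2af1 measured -2.91, -5.93, -5.80, and -4.13 in WT replicates 1 to 4 and -2.07, -5.86, -4.23, and -3.55 in the Fcgr2b-ko mice. It measured -5.43, -1.98, -3.77, and -3.50 in the double-deficient mice and -3.64, -2.36, -4.11, and -3.97 in the Sting-ko mice. WT replicates 2 and 3, Fcgr2b-ko replicate 2, and double-deficient replicate 1 were the 4 mice in which the probe was not well above background, and the groups overlapped. The Sting-ko group had the highest mean, -3.52 ± 0.80, and the WT group the lowest, -4.69 ± 1.45 (SD, n = 4 each).

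Prdm1 measured -1.39, -5.31, -5.14, and -4.38 in WT replicates 1 to 4 and -0.88, -5.28, -2.83, and -3.34 in the Fcgr2b-ko mice. Its levels were -4.79, -2.24, -3.49, and -3.78 in the double-deficient mice and -1.81, -3.72, -2.15, and -1.58 in the Sting-ko mice. Here 3 of the 4 Sting-ko mice were high, but WT replicate 1 and Fcgr2b-ko replicate 1 were higher still, and the groups overlapped. Prdm1 is also used by T cells and by some epithelial and myeloid cells, so its level in whole kidney is not that of plasma cells alone.

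Of the genes of antibody assembly, Jchain encodes the joining chain of polymeric IgM and IgA, and Mzb1 encodes a chaperone of the endoplasmic reticulum that serves antibody secretion. Jchain had the widest span of the members, with 3.54, -1.57, -2.16, and 0.09 in WT replicates 1 to 4 and 1.02, -0.12, -2.53, and -0.82 in the Fcgr2b-ko mice. It measured -1.50, 1.41, -0.27, and -1.84 in the double-deficient mice and 1.49, 1.81, 0.81, and 0.63 in the Sting-ko mice. The 4 Sting-ko mice lay close together, at 1.18 ± 0.56, above 3 of the 4 WT mice and below the remaining one, whereas the WT mean was -0.02 ± 2.56 (SD, n = 4 each). The span over all 16 mice was 67.2-fold.

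Mzb1 had the narrowest span among the measured members, 6.1-fold. It measured -1.87, -3.97, -4.44, and -2.52 in WT replicates 1 to 4, and -2.75, -3.82, -3.04, and -2.29 in the Fcgr2b-ko mice. Levels were -3.33, -2.05, -3.10, and -2.88 in the double-deficient mice and -3.63, -1.83, -3.35, and -2.78 in the Sting-ko mice. Group means lay between -3.20 and -2.84, closer together than the SD of any group, which was 0.56 to 1.21.

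In the lupus comparison, Fcgr2b-ko against WT, none of the 6 measured members was called. The background in this comparison was 16 of 35628 probes called, or 0.0449%, with 15 higher and 1 lower. At an unadjusted p under 0.05 the background was 3.3% of probes and the members gave 0 of 6. A mean above WT was found for 5 members and a mean below it for Jchain, and the median log2 change of the 6 was 0.58, beside -0.04 over all probes tested. The member with the smallest p was Cd79b, 1.24 above WT (SE 0.77, 95% interval -0.40 to 2.88, adjusted p = 1.0). Without Fcgr2b-ko replicate 1, Cd79b was 0.65 above WT, Prdm1 0.23 in place of 0.97, and Pou2af1 0.15 in place of 0.77. The interval of Jchain reached from -2.86 to 1.68 and that of Prdm1 from -1.03 to 2.96, which leaves room for changes of over 2-fold in either direction. In whole kidney RNA, fewer cells of a type and less RNA per cell cannot be told apart.

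The study asked whether Fcgr2b-deficient mice need STING to develop lupus, and kidney RNA was one of its readouts. In the double-deficient mice against the Fcgr2b-ko mice, 0 of the 6 members were called, and 0% of all probes were called. At an unadjusted p under 0.05, 1.75% of all probes and none of the members passed. The changes of the members lay between -0.51 for Cd79b and 0.52 for Ms4a1, with a median of 0.10 beside 0.05 over all probes. The interval was -2.15 to 1.13 for Cd79b and -1.31 to 2.35 for Ms4a1, so neither a fall nor a rise of 2-fold could be told from no change. Prdm1 differed by -0.49 (SE 0.94) and Jchain by 0.06 (SE 1.07). With the slide as a block, Ms4a1 differed by 0.88 and Cd79b by -0.20.

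Double-deficient mice against WT gave 0% of probes called and 0.418% at an unadjusted p under 0.05, with 0 of 6 members in either count. The largest change of a member was that of Pou2af1, 1.02 (SE 0.86, 95% interval -0.81 to 2.85, adjusted p = 1.0), which also had the smallest p of the 6. With normexp background correction this change was 0.27. Without double-deficient replicate 2, Ms4a1 was 0.22 above WT in place of 0.91 and Cd79b 0.24 in place of 0.73. Both comparisons against WT and the next one share the 4 WT mice.

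In the Sting-ko mice all 6 members had a mean above WT, with a median of 1.03 beside 0.02 over all probes tested, and none was called. The background was 0% of probes called and 3.73% at an unadjusted p under 0.05, against 0 of 6 members. Prdm1, at 1.74 above WT (SE 0.94, 95% interval -0.26 to 3.73), had the smallest p of any member in any comparison of this fit, 0.083, with an adjusted p of 0.738. Jchain was 1.21 above WT (SE 1.07, interval -1.06 to 3.48) and Pou2af1 1.17 (SE 0.86, interval -0.65 to 3.0). With normexp background correction, Prdm1 was 0.63, Pou2af1 0.33, and Ms4a1 0.43 above WT, and neither Prdm1 nor Pou2af1 was well above background in WT replicates 2 and 3. These groups overlapped for every member, and were fully apart for only 1.99% of all probes tested. The WT group held both the highest and the lowest Jchain level of the pair.

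**Figure D2:**
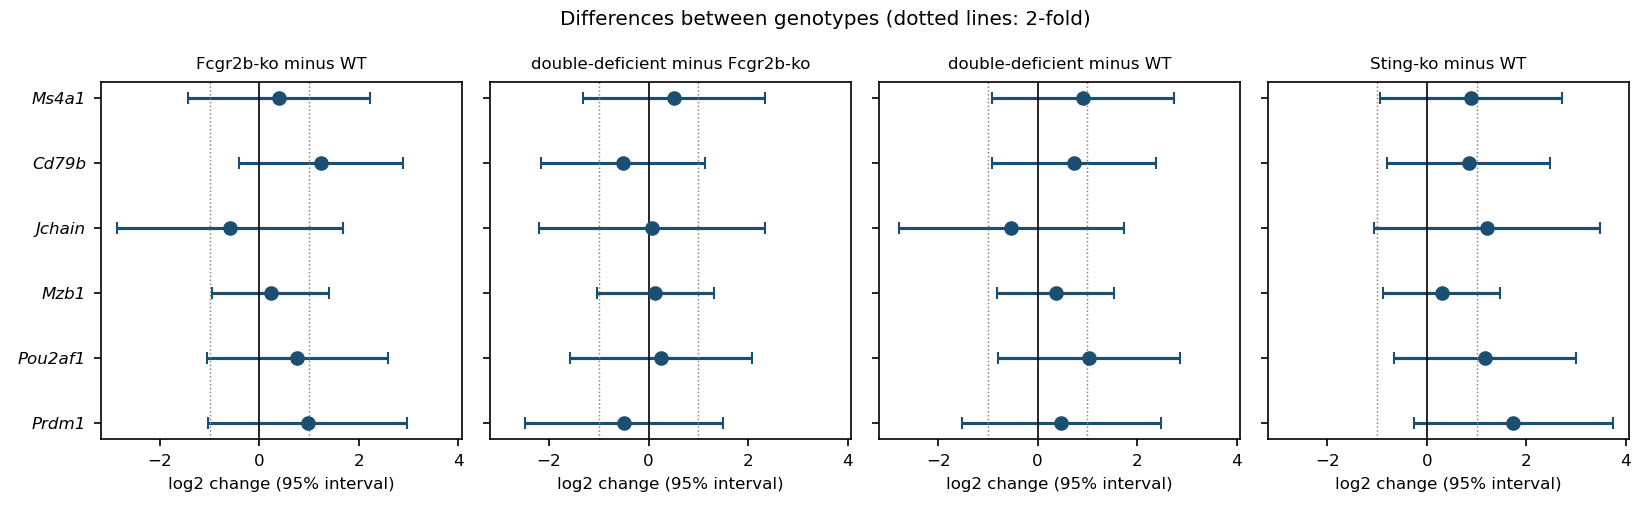
Log2 change of the 6 measured members (rows) in 4 comparisons (panels), with 95% intervals from limma on the horizontal axis and dotted lines at 2-fold. Every interval crossed 0, and the interval of Prdm1 in Sting-ko mice, -0.26 to 3.73, came nearest to leaving it out.

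When all 8 Fcgr2b-deficient mice were set against all 8 other mice, 0.0674% of probes were called, 17 higher and 7 lower, and 0 members were among them. At an unadjusted p under 0.05 the share was 1.63% of probes against 0 of 6 members. A mean above was found for 4 members and a mean below for 2, from -1.16 for Jchain (SE 0.75, 95% interval -2.77 to 0.44) to 0.57 for Cd79b (SE 0.54, interval -0.59 to 1.73). The interaction, the change with Sting loss in Fcgr2b-deficient mice minus that in Fcgr2b-sufficient mice, gave 0% of probes called and 6.23% at an unadjusted p under 0.05, against 0 of 6 members. It was below 0 for all 6 members, with a median of -1.03 and the largest size for Prdm1, -2.23 (SE 1.33, 95% interval -5.05 to 0.59, adjusted p = 0.668), or -1.05 with normexp.

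The members differed far more between mice of one genotype than most probes did. The SD within genotypes was 0.84 for Mzb1, 1.20 for Cd79b, 1.34 for both Ms4a1 and Pou2af1, 1.47 for Prdm1, and 1.68 for Jchain, beside a median of 0.55 over the 35628 probes tested. For Jchain, 98.9% of the probes had a smaller SD, and for Mzb1 76.7%. Genotype accounted for 3.4% of the variance of Mzb1, 9.51% of that of Ms4a1, 13.1% for Pou2af1, 15.7% for Cd79b, 19.8% for Jchain, and 20.3% for Prdm1, beside a median of 14.5% over all probes. With 4 mice per genotype, chance alone gives such a share a positive value, so none of them shows an effect of genotype. These shares are descriptions and were not tested.

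The same mice were high or low for most of the members, an observation made after the values were seen. WT replicate 1 was among the 4 highest of 16 mice for all 6 members, double-deficient replicate 2 for 5, and Fcgr2b-ko replicate 1 and Sting-ko replicate 2 for 4 each. WT replicates 2 and 3 were among the 4 lowest for all 6. The 3 mice with the highest mean over the 6 members came from different genotypes and were WT replicate 1 at -0.52, Fcgr2b-ko replicate 1 at -0.73, and double-deficient replicate 2 at -0.77. The mean over the 6 members was -2.82 ± 1.67 in WT, -2.32 ± 1.16 in Fcgr2b-ko, -2.32 ± 1.09 in double-deficient, and -1.79 ± 0.39 in Sting-ko mice (SD, n = 4 each). The mean over all 7 members includes the unmeasured Cd79a, and its SD between mice within genotypes was 1.04. This SD is not the error of a difference between group means. The mean over all 7 differed by 0.50 between Fcgr2b-ko and WT, 0.0058 between double-deficient and Fcgr2b-ko, 0.50 between double-deficient and WT, and 0.95 between Sting-ko and WT mice. It differed by 0.024 between all Fcgr2b-deficient and all other mice, and its interaction was -0.95. With single mice left out these differences ranged from 0.029 to 1.19, from -0.43 to 0.47, from 0.067 to 1.20, from 0.57 to 1.65, from -0.21 to 0.37, and, for the interaction, from -1.64 to -0.48, in the same order.

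Over the 16 mice, Pearson's r between 2 members lay between 0.50 for Mzb1 with Prdm1 and 0.86 for Ms4a1 with Pou2af1, with a median of 0.69 over the 15 pairs. After each genotype's mean was subtracted the range was 0.51 to 0.89. The mice share the tissue and the scaling by array, and these values describe the 16 arrays with no test. Among the B-cell genes Ms4a1, Cd79b, and Pou2af1 r was 0.84 to 0.86, and between Jchain and Mzb1, the genes of antibody assembly, it was 0.59. Between a B-cell gene and Jchain or Mzb1, r ran from 0.64 (Jchain with Pou2af1) to 0.82 (Mzb1 with Pou2af1). Jchain and Mzb1 thus followed these B-cell genes more closely than each other.

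**Figure D3:**
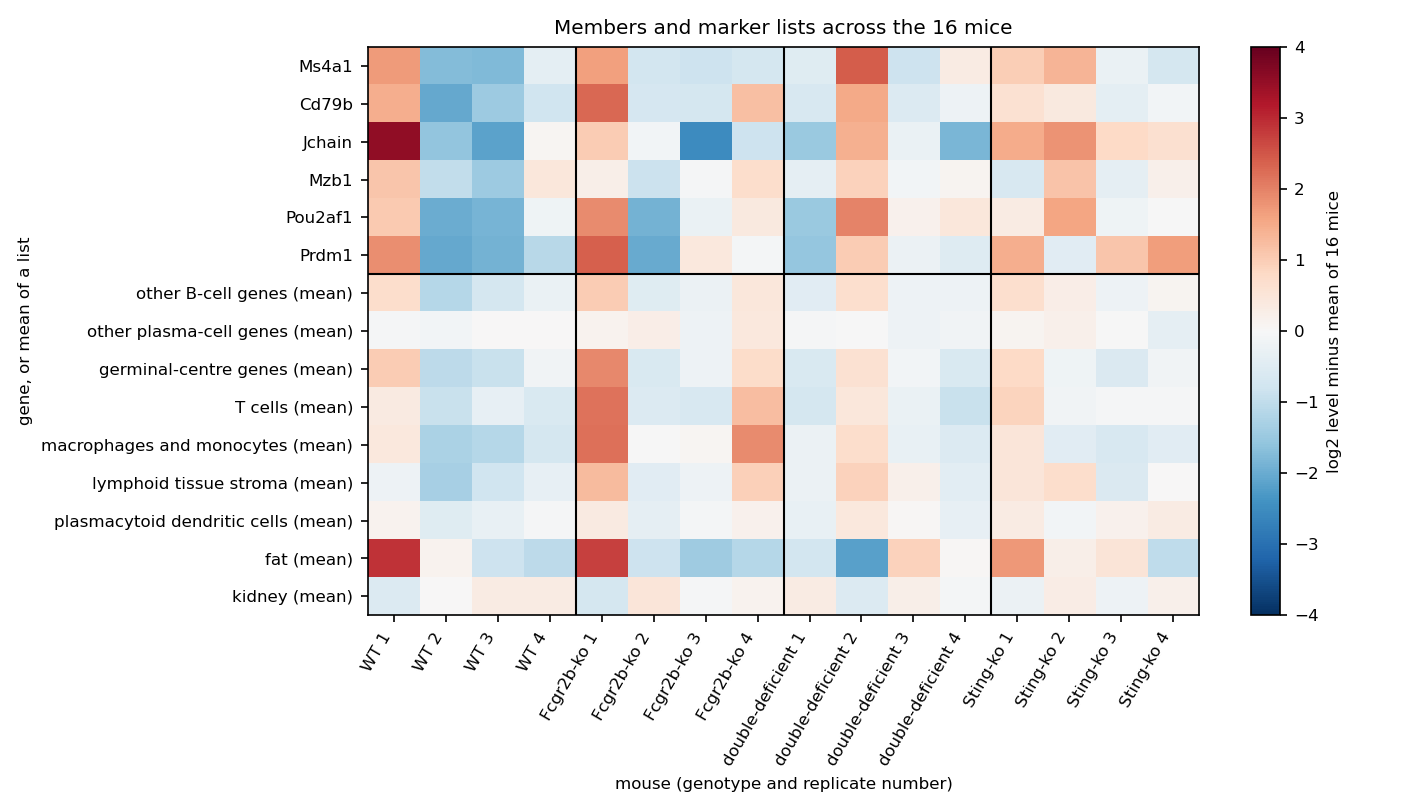
Level of each measured member (upper 6 rows) and mean level of the genes of each marker list (lower rows) in each of the 16 mice (columns, by genotype and replicate), as log2 level minus the mean of the 16 mice. WT replicate 1, Fcgr2b-ko replicate 1, and double-deficient replicate 2 are red for nearly all members. The row of other plasma-cell genes, some of which epithelia also make, hardly varies.

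Of 24 other B-cell genes, 22 had a named probe, 21 were tested, and 14 were well above background on every array, while the probe of Blk, a B-cell kinase, passed on none. None was called in any comparison. In Fcgr2b-ko against WT, 4 were higher and 1 lower at an unadjusted p under 0.05, with a median change of 0.56. The 3 with the largest change were Cd72, a B-cell coreceptor (2.43, SE 0.67, adjusted p = 0.683), Syk, a kinase of immune receptors (2.26, SE 0.60, adjusted p = 0.619), and Cd83, an activation marker (2.12, SE 0.79, adjusted p = 1.0). In double-deficient against Fcgr2b-ko mice Cd72 differed by -1.68 (SE 0.67) and Syk by -1.46 (SE 0.60), at unadjusted p under 0.05 and adjusted p of 1.0, and the median of the 21 was 0.02. Syk and Cd83 are also used by macrophages and dendritic cells, and Cd72 by some of them.

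Over all Fcgr2b-deficient against all other mice, Fcrla, an intracellular Fc receptor-like protein of B cells, differed by -1.32 (SE 0.49), and Cd72 and Syk by 1.25 (SE 0.47) and 1.13 (SE 0.42), all with an adjusted p of 1.0. The probe of Fcrla was well above background on 5 of the 16 arrays, so that its change rests mostly on unmeasured levels. Pax5, the B-cell lineage factor, did not follow the members, with an r of -0.47 and levels between -3.80 and -2.86 in all mice. The mean of the 21 other B-cell genes followed the mean of the 6 members over the 16 mice, with Pearson's r of 0.94 and Spearman's rho of 0.95.

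Of 25 other plasma-cell genes, 14 had a named probe and 12 were tested. The immunoglobulin constant and variable genes of the list could not be matched to a probe by name and were not used here, which leaves out the most abundant transcripts of a plasma cell. In Fcgr2b-ko against WT, 2 genes were higher at an unadjusted p under 0.05, namely Sdc1, the plasma-cell surface proteoglycan that epithelia also make (0.66, SE 0.31), and Tnfrsf13b, the receptor TACI (0.42, SE 0.19), with adjusted p of 1.0 for each. None was called in any comparison, and the median change in this one was 0.02. The mean of the 12 genes varied little, between -1.37 and -0.60, and its r with the mean of the 6 members was 0.15. Tnfrsf17 and Cd27 were well above background on 1 array each and were not among the 12. Those tested include Xbp1 and Sdc1, which epithelia also make, so their mean is not a measure of plasma cells alone. Xbp1, the factor of the secretory program that many secretory and epithelial cells use, lay between 4.06 and 5.21 in all mice with an r of -0.36, whereas Irf4, a factor of plasma cells and activated lymphocytes, had an r of 0.86. The probe of Irf4 was well above background on only 7 arrays, and Sdc1 had an r of 0.21.

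Of 10 germinal-centre genes, 7 were tested. Cd86 (2.02, SE 0.83) and Il21r (1.53, SE 0.61) were higher in Fcgr2b-ko than in WT mice at an unadjusted p under 0.05, with adjusted p of 1.0, and none of the 7 was called in any comparison. Both genes are also expressed by myeloid or T cells.

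The genes outside the members whose levels were most like the mean of the 6 members over the 16 mice, among 16376 genes compared, were mostly lymphocyte genes. They were Cxcr5, the chemokine receptor of B-cell follicles (r of 0.97), Bank1, a B-cell scaffold protein (0.93), Tcf7, a T-cell factor (0.93), Tmem47 (0.92), Tnfrsf13c, the BAFF receptor (0.91), Clstn2 (0.91), Btla, an inhibitory receptor of lymphocytes (0.90), and Ebf1, a B-cell lineage factor that stromal cells and adipocytes also make (0.90). Cxcr5 was well above background on 5 arrays, Tnfrsf13c on 7, Bank1 and Tcf7 on 9 each, and Ebf1 and Clstn2 on all 16. Cxcr5 lay between -7.46 and -3.80, so its likeness rests on few measured arrays.

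Genes of other cell types moved with the members across mice, and their part in the members' levels was not tested. The 8 T-cell genes were all tested, with a mean per mouse of -2.22 to -0.95 in WT, -1.95 to 0.85 in Fcgr2b-ko, -2.19 to -0.86 in double-deficient, and -1.46 to -0.42 in Sting-ko mice. Their r with the mean of the 6 members was 0.69. The 8 macrophage and monocyte genes ranged from -0.29 to 1.38 in WT, 0.97 to 3.19 in Fcgr2b-ko, 0.43 to 1.68 in double-deficient, and 0.33 to 1.47 in Sting-ko mice, with an r of 0.62. In Fcgr2b-ko against WT, 6 of the 8 were higher at an unadjusted p under 0.05 with a median change of 1.96 and 0 called, Lyz2 leading with 3.22 (SE 0.80, adjusted p = 0.499), beside 0 of 6 B and plasma cell markers at the same threshold.

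The genes of lymphoid tissue stroma included Cxcl13, the chemokine that draws CXCR5-bearing B cells. The probe of Cxcl13 was well above background in 1 of the 4 WT mice, so that the WT mean rests mostly on unmeasured levels. On these values Cxcl13 was 3.47 above WT in Fcgr2b-ko mice (SE 0.83, adjusted p = 0.416) and 3.18 above WT in double-deficient mice (SE 0.83, adjusted p = 1.0), and was not called in either. Its levels were -7.16 to -5.01 in WT, -4.35 to -1.09 in Fcgr2b-ko, -4.06 to -2.08 in double-deficient, and -6.97 to -3.06 in Sting-ko mice, so that neither Fcgr2b-deficient group overlapped the WT group. Over all probes tested, 1.19% in Fcgr2b-ko and 0.547% in double-deficient mice were likewise fully apart from WT. Cxcl13 had an r of 0.44 with the mean of the 6 members, and the mean of the 6 tested genes of this list an r of 0.75. The list also holds Ltb and Cr2, and Cr2 is counted among the other B-cell genes as well. Its r is therefore not that of stroma alone.

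The mean of the 5 plasmacytoid dendritic cell genes tested lay between 1.29 and 2.19, with an r of 0.81 with the members. Plasmacytoid dendritic cells also use Jchain and Mzb1, so these members are not markers of B and plasma cells alone. The 5 fat genes were high in WT replicate 1 (1.37), Fcgr2b-ko replicate 1 (1.22), and Sting-ko replicate 1 (0.23), and lowest in double-deficient replicate 2 (-3.66), which also stood high for the members. Their r was 0.45 over 16 mice and 0.02 without the 2 mice farthest from the median. The mean of the 3 adrenal genes tested and of the 5 red-cell genes had an r of -0.12 and 0.11. The mean of the 8 kidney genes was 4.80 to 4.96 in the 3 mice with the highest mean of members and 5.25 to 5.98 in the other 13 mice, with an r of -0.72. The Y-linked genes were high in 6 of the 16 mice, WT replicates 1 and 2, Fcgr2b-ko replicate 3, double-deficient replicates 2 and 4, and Sting-ko replicate 3, and their r was 0.11.

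**Figure D4:**
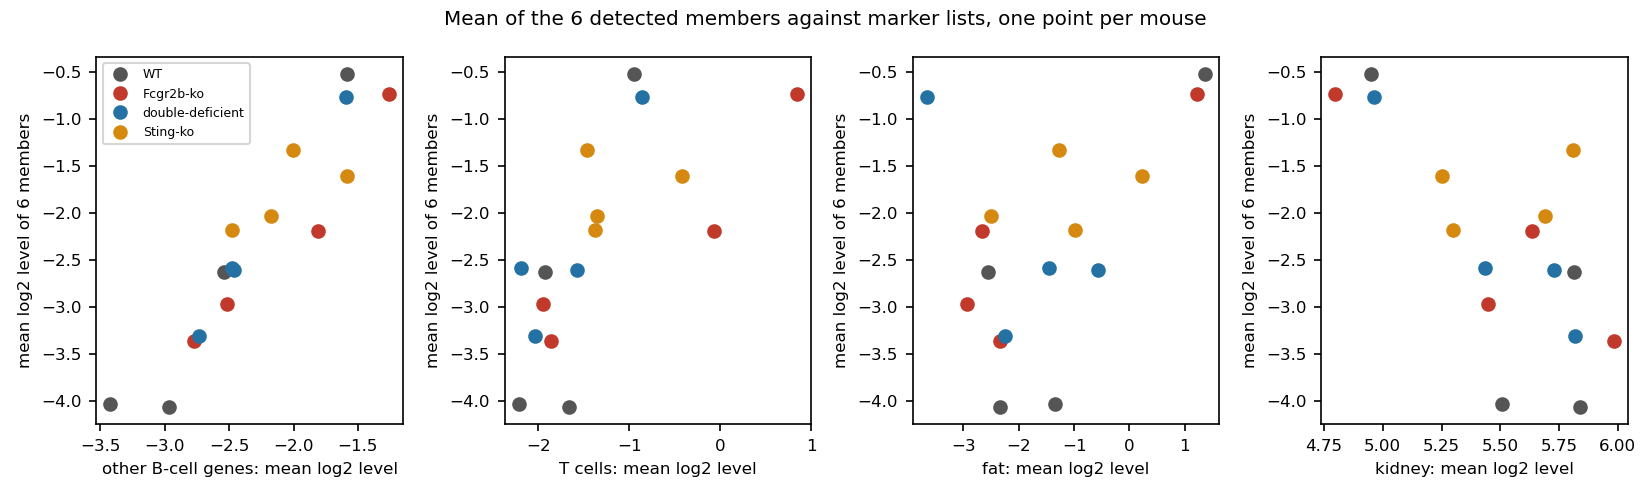
Mean log2 level of the 6 measured members (vertical axis) against the mean log2 level of 21 other B-cell genes, 8 T-cell genes, 5 fat genes, and 8 kidney genes (horizontal axes), 1 point per mouse, colored by genotype. The B-cell panel has the tightest relation (r of 0.94), in the fat panel 1 double-deficient mouse is high for the members and lowest for fat, and the kidney panel slopes down (r of -0.72).

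The size of each difference from WT depended on single mice, and most often on WT replicate 1, whose Jchain level of 3.54 was the highest of all 16 mice. This mouse was the highest WT mouse for all 6 measured members and was singled out after the values were seen. Leaving it out must therefore raise every change from WT, and the direction of the shifts below is not a result. Without this mouse, Sting-ko against WT gave a median change of 1.70 in place of 1.03, and 3 of 6 members passed an unadjusted p under 0.05, namely Prdm1 (2.63, SE 0.84), Jchain (2.39, SE 0.85), and Cd79b (1.56, SE 0.69), each with an adjusted p of 0.496. The background was then 8.11% of probes at an unadjusted p under 0.05, with 2173 higher and 715 lower, and 0% called. Without other WT mice the same comparison fell as low as 0.50 for Jchain and 0.48 for Ms4a1 (replicate 3) and 0.39 for Cd79b, 0.76 for Pou2af1, and 1.32 for Prdm1 (replicate 2). Without WT replicate 1, Fcgr2b-ko against WT gave a median of 1.25, with Cd79b at 1.96 (SE 0.69) and Prdm1 at 1.86 (SE 0.84) past the unadjusted threshold, and adjusted p of 0.741 and 0.837, beside 5.1% of probes at that threshold and 0.0421% called. Double-deficient against WT gave a median of 1.41 with 0 of 6 members past it, beside 1.39% of probes and 0.00281% called, and Jchain changed its sign from -0.53 to 0.66. In the interaction, Prdm1 (-3.12, SE 1.14) and Cd79b (-2.07, SE 0.95) passed the unadjusted threshold, with an adjusted p of 0.518, beside 8.48% of probes and 0% called. No member was called with this mouse left out. WT replicate 1 had 35507 probes well above background, near the highest count of 35564 in Fcgr2b-ko replicate 1. WT replicates 2 and 3, low for the members, had 29811 and 30009. Double-deficient replicate 3, which was not high for the members, had 35167. WT replicate 1 also had the highest mean of fat genes of all mice. The part of the probe count or of fat in these values was not tested.

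**Figure D5:**
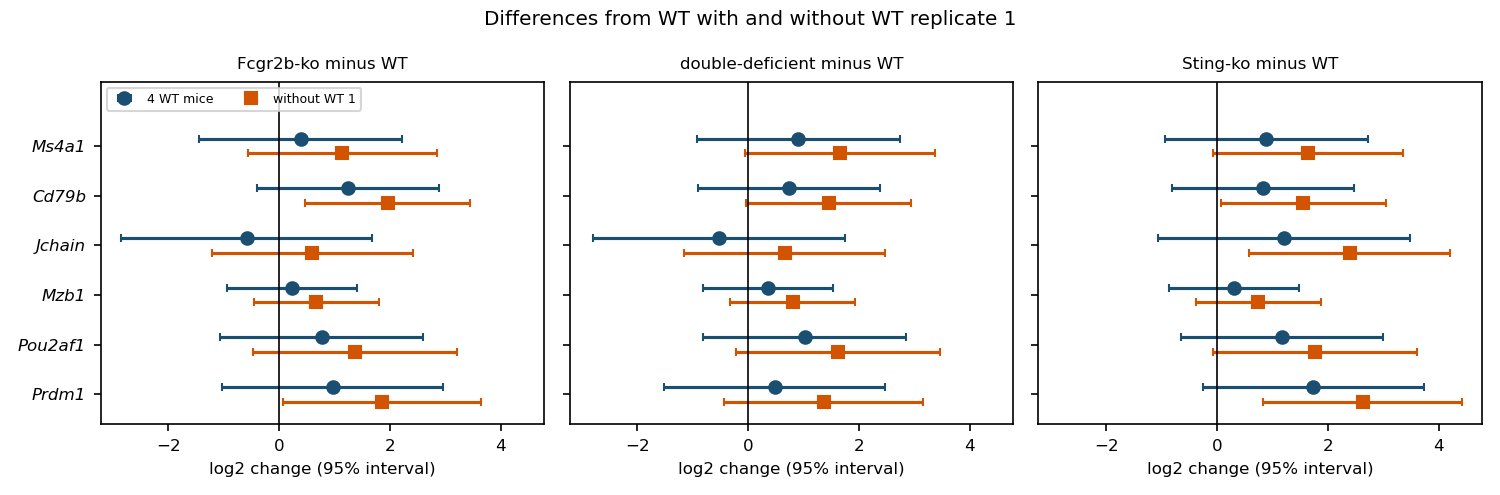
Log2 change from WT with 95% intervals (horizontal axis) of the 6 measured members (rows) in 3 genotypes (panels), with all 4 WT mice (circles) and without WT replicate 1 (squares). Each square must lie to the right of its circle, because WT replicate 1 was the highest WT mouse for every measured member. Jchain in the Fcgr2b-ko and double-deficient panels moves from below 0 to above it.

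The arrays lay on 2 slides, with 2 WT, 3 Fcgr2b-ko, 1 double-deficient, and 2 Sting-ko mice on the first. Within both slides, all 6 members had a higher mean in Sting-ko than in WT mice, by 0.19 to 1.42 on slide 1 and 0.42 to 2.89 on slide 2. For double-deficient against WT, all 6 members were lower on slide 1, by 0.36 to 2.48 in size for its 1 double-deficient mouse, and higher on slide 2, and 5 of 6 members changed sign between slides against Fcgr2b-ko. In Fcgr2b-ko against WT, 1 of 6 members, Mzb1, differed in sign (-0.03 and 0.44). With as few as 1 mouse per group on a slide, these values carry no test.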

How the data were processed

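Total kidney RNA (100 ng per mouse) was labelled with Cy3 and hybridized to one-color Agilent arrays. The deposited scanner files hold an intensity for each spot, background-subtracted by the authors with Agilent Feature Extraction 11.0 and not scaled between arrays. The deposited value table holds the authors' log2 values of the same arrays, whose scaling is not given in the sources used here, and was used as an alternative. Every per-sample column was matched to a mouse.

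From the intensities, log2 minus the 75th percentile of each array was computed. Control and outlier spots were left out, spots of a probe were averaged, and no spot was saturated. Probes were named through RefSeq (GRCm38.p6), and the brightest probe stood for a gene. Probes well above background on at least 4 arrays entered a limma fit (version 3.58.1, R 4.3.3) with 1 mean per genotype, which was also tested on simulated data. All members were named, as were up to 3 genes per list and comparison with the largest change at an unadjusted p under 0.05 and the 8 genes most like the members' mean. Not every gene that this rule gives in the non-B-cell lists is printed. Pax5, Xbp1, and Irf4 were singled out after their values were seen. Members and lists were chosen with earlier results of these data known. Alternatives were normexp background correction on the median spot signal, other scalings, filters, fits, and tests, blocks, and each mouse left out. Sex, read from Y-linked genes, was added after the data were seen. Some results are not reported here.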

Additional observations from a re-analysis of the deposited data

Results flagged for a closer look

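Among the 28 sets of 4 mice (7 members in 4 genotypes), 1 held a mouse far from the other 3 by Dixon's test at the 95% level, which chance gives in about 1 of 20 sets. It was Fcgr2b-ko replicate 1 for Ms4a1, whose level of -1.32 stood apart from -3.72, -3.79, and -3.69 in the other mice of the group. The same mouse had the highest mean of T-cell genes (0.85) and of macrophage and monocyte genes (3.19) of all 16 mice, and the part of those cells in its Ms4a1 level was not tested.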

How the results depend on the processing

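No member was called in any of the 6 comparisons under any alternative run (145 of 145 counts were 0), including the Mann-Whitney test at an unadjusted p, whose smallest p with 4 mice against 4 is 0.0286. The 5 counts of the adjusted Mann-Whitney test are left out, since with 4 mice against 4 that p could not pass. In all Fcgr2b-deficient against all other mice this reason does not hold. There the smallest adjusted Mann-Whitney p over all probes was 0.231, and the smallest unadjusted one of a member was 0.195. The filter of all 16 arrays tested only 3 members, Cd79b, Jchain, and Mzb1. With all mice, the smallest unadjusted limma p of a member was 0.083 in the setting of the report and 0.0568 over the alternatives, for Prdm1 in Sting-ko against WT with sex as a covariate (1.95, adjusted p = 0.771). The mean of the 7 members moved by less than its within-genotype SD of 1.04 in all 112 alternative values, a wide limit beside differences of at most 0.95 in size. Of 816 alternative values of single members, 770 kept their sign and 46 changed it, and none of these members was called.

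Counts over the whole array were less stable. Fcgr2b-ko against WT gave 16 probes, 10 with normexp background correction, 7 with the authors' table, 8 with sex as a covariate, 144 with the Mann-Whitney test at 2-fold and unadjusted p, and 0 with that test adjusted, with the filter of all 16 arrays, with only the groups compared, and with the animal label number as a random block. Leaving out single mice gave 0 to 39, with 0 without WT replicate 2, 3, or 4 or Fcgr2b-ko replicate 4, 3 without Fcgr2b-ko replicate 1, and 39 without Fcgr2b-ko replicate 2. Double-deficient against WT gave 0 probes, 1 with normexp, 1 with the filter of all 16 arrays, 3 with only the groups compared, 58 with the unadjusted Mann-Whitney test, and 0 to 1 with single mice left out. The unadjusted Mann-Whitney test gave 38 probes for double-deficient against Fcgr2b-ko and 117 for Sting-ko against WT, where limma called 0. All Fcgr2b-deficient against all other mice gave 24 probes, 13 with normexp, 6 with the filter of all 16 arrays, 6 with the animal label number as a block, 207 with the unadjusted Mann-Whitney test, and 0 with the adjusted one.

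The signs of small changes turned. With normexp, Mzb1 was -0.0062 in double-deficient against Fcgr2b-ko, Prdm1 -0.035 in double-deficient against WT, and Ms4a1 -0.014 and Mzb1 -0.019 in all Fcgr2b-deficient against all other mice. With the animal label number as a block, Mzb1 was -0.19 in double-deficient against Fcgr2b-ko. The interaction of Mzb1 was -0.17, and 0.11 with quantile normalization, 0.12 with median scaling, and 0.10 with the authors' table. With single mice left out, Fcgr2b-ko against WT ranged from -0.21 to 1.14 for Ms4a1, -1.30 to 0.60 for Jchain, and -0.19 to 0.67 for Mzb1. Double-deficient against Fcgr2b-ko ranged from -0.17 to 1.12 for Ms4a1, -1.0014 to 0.083 for Cd79b, -0.59 to 0.61 for Jchain, -0.15 to 0.36 for Mzb1, -0.39 to 0.87 for Pou2af1, and -1.22 to 0.24 for Prdm1. Double-deficient against WT ranged from -1.24 to 0.66 for Jchain and -0.055 to 0.80 for Mzb1, and Sting-ko against WT from -0.11 to 0.75 for Mzb1. All Fcgr2b-deficient against all other mice ranged from -0.14 to 0.58 for Ms4a1, -0.065 to 0.36 for Mzb1, -0.0017 to 0.63 for Pou2af1, and -0.51 to 0.30 for Prdm1, and the interaction from -1.12 to 0.23 for Ms4a1 and -0.61 to 0.24 for Mzb1. The cause of these shifts was not tested.

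Of the correlations between deviations of mice with the same replicate number, 11 of 24 were over 0.1, in a range of -0.60 to 0.69. For WT with Fcgr2b-ko mice they were 0.69, 0.60, and 0.49 in 3 of 4 pairs and -0.07 in the other, and for Fcgr2b-ko with Sting-ko mice 0.44, 0.41, and 0.40 in 3 of 4. Since not every pair was over 0.1, the numbers were not taken to pair the mice. With the replicate number as a block, 15 probes were called for Fcgr2b-ko against WT and 22 for all Fcgr2b-deficient against all other mice, and no member was called. Each member has 1 probe, so the median of probes could change nothing. The interaction has no Mann-Whitney form and was not run with it. The main limits are 4 mice per genotype, the strain that runs with Fcgr2b, and signals near background for Pou2af1 and Prdm1.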
